A study of Mus musculus with 12 samples.

Results

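Tbx21, Eomes, Runx3, Runx1, Hopx, Zeb2, Prdm1 and Id2 encode regulators of effector and memory fate in CD8 T cells, and their messenger RNA was followed here in 12 mouse RNA-seq libraries. The 8 genes were taken by name from 23420 genes in the count tables, and all 8 passed the filter on low counts that left 12759 genes to test. The libraries form 4 groups of 3. Stimulated KO cells came from OTUB1-CD4Cre mice, in which Otub1, a deubiquitinase gene, is deleted in T cells, and were cultured for 24 h with plate-bound anti-CD3 plus anti-CD28 at 1 µg/ml each. Stimulated WT cells had an intact Otub1 and the same culture. Fresh KO and fresh WT cells were the same genotypes, labelled untreated. All groups were C57BL/6 spleen cells from mice aged 6 to 8 weeks and carried OT-I, a transgenic T cell receptor for an ovalbumin peptide. The CD4-Cre recombinase acts in developing T cells, so effects during development and in mature cells cannot be told apart. One label calls the genotype OTUB1-DKO, and its meaning is not given. Fresh cells are read here as cells that never entered culture, and the effects of stimulation and of culture cannot be told apart. No label ties the libraries of a group to separate mice, and p-values rest on the spread among these libraries. Y-linked reads were present in 1 library and near 0 in the others of fresh KO, fresh WT and stimulated KO, so these groups hold more than 1 animal, and in stimulated WT the spread may be technical.

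As background, T-bet (the product of Tbx21) and Eomesodermin (Eomes) are related T-box activators. T-bet favours effector differentiation, and Eomes is tied to memory and to the response to IL-15. RUNX3 and RUNX1 bind DNA with the shared partner CBFβ. RUNX3 silences Cd4 and holds the cytotoxic programme in CD8 cells. HOPX is a homeodomain protein that does not bind DNA itself and is found in effector and memory T cells. ZEB2 and Blimp-1 (Prdm1) are repressors of transcription that act in terminal effector cells, and ID2 keeps E proteins from binding DNA.

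The libraries held 15064488 to 25920035 gene counts. Levels are counts scaled to library size (CPM, with trimmed-mean factors). Tests are edgeR's quasi-likelihood test over 12759 genes, called at an adjusted p under 0.05. Otub1 itself fell: it averaged 14.8 ± 1.26 CPM in stimulated KO cells and 94.0 ± 7.48 CPM in stimulated WT cells, and 27.6 ± 1.91 CPM in fresh KO cells and 62.8 ± 15.4 CPM in fresh WT cells (SD, n = 3 each; log2 -2.66 and -1.19, edgeR adjusted p = 1.35e-07 and 0.000559). The submitters' tag for cell type reads dendritic, whereas their design text speaks of naive CD8 T cells. The 12 dendritic cell markers summed to 102 to 122 CPM in stimulated libraries and to 1144 to 1744 CPM in fresh libraries. The 6 CD8 T cell markers stood above them, at 1489 to 1966 CPM in stimulated and 4878 to 5227 CPM in fresh libraries. None of the 12 dendritic genes was at 0 in a whole group, and the defining marker Flt3 averaged 18.7 CPM in fresh KO and 22.1 CPM in fresh WT. Reads of Y-linked genes stood above 10 CPM in fresh KO replicate 2, fresh WT replicate 3 and stimulated KO replicate 3, and were near 0 elsewhere. Without fresh WT replicate 2, 21 genes were higher and 8 lower in fresh KO cells, against 125 and 28 with all libraries.

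**Figure D1:**
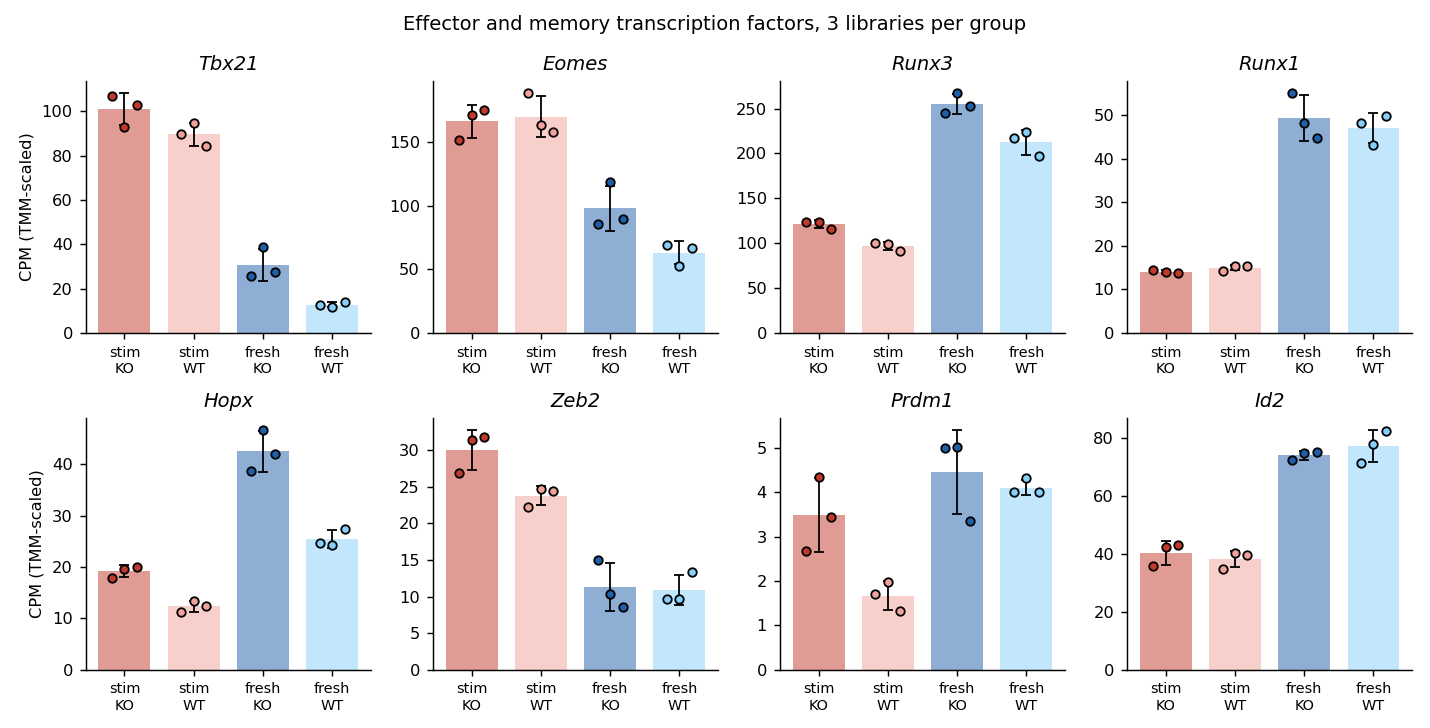
Level of each gene in CPM (vertical axes, linear, from 0) in the 12 libraries, with groups from left to right stimulated KO, stimulated WT, fresh KO and fresh WT. Points are libraries and bars are means with SD (n = 3). Tbx21 was 25.6 to 38.7 CPM in fresh KO libraries and 11.7 to 14.0 CPM in fresh WT libraries, with no overlap.

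Per kilobase of exon, the order of the 8 genes differed between states. In fresh KO cells Runx3 had the highest level, 51.0 ± 2.25 RPKM, followed by Id2 at 30.4 ± 0.621, Hopx at 28.0 ± 2.66, Eomes at 23.6 ± 4.33 and Tbx21 at 12.3 ± 2.84 RPKM (SD, n = 3). In fresh WT cells the order was the same: Runx3 42.5 ± 2.81, Id2 31.7 ± 2.28, Hopx 16.8 ± 1.12, Eomes 15.2 ± 2.15 and Tbx21 5.12 ± 0.484 RPKM. Hopx and Eomes overlapped in their library values in both fresh groups, and Id2 and Hopx in fresh KO cells. In stimulated KO cells Tbx21 (40.6 ± 2.91 RPKM) and Eomes (40.0 ± 3.09 RPKM) stood first with overlapping values, ahead of Runx3 at 24.2 ± 0.835 RPKM. In stimulated WT cells Eomes led at 41.0 ± 3.89 RPKM, then Tbx21 at 36.0 ± 2.05 and Runx3 at 19.4 ± 0.924 RPKM. Runx1, Zeb2 and Prdm1 were the 3 lowest in every group, between 0.299 and 4.10 RPKM on average. With the longest principal transcript as the length, Runx1 stood above Tbx21 in fresh WT cells (8.02 and 5.12 RPKM), and Eomes stood above Tbx21 in stimulated KO cells (46.7 and 40.6 RPKM). The order among the 3 lowest genes changed with the length as well.

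The first comparison asks how loss of Otub1 in T cells relates to these regulators before stimulation. In fresh KO cells 4 of the 8 genes rose and none fell: Tbx21, Eomes, Runx3 and Hopx. Of all genes tested, 0.98% were higher and 0.219% lower. The same 4 genes had every fresh KO library above every fresh WT library, which 10.6% of all genes also had. The median log2 fold change of the 8 was 0.19, against -0.00018 for all genes. In stimulated cells, KO against WT, 3 of the 8 rose and none fell: Runx3, Hopx and Prdm1. There, 5.08% of all genes were called higher and 4.22% lower. Zeb2 joined these 3 in having no overlap between groups, which 14.3% of all genes had in the upward direction. The median log2 fold change was 0.25 for the 8 genes and -0.0048 for all genes.

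**Figure D2:**
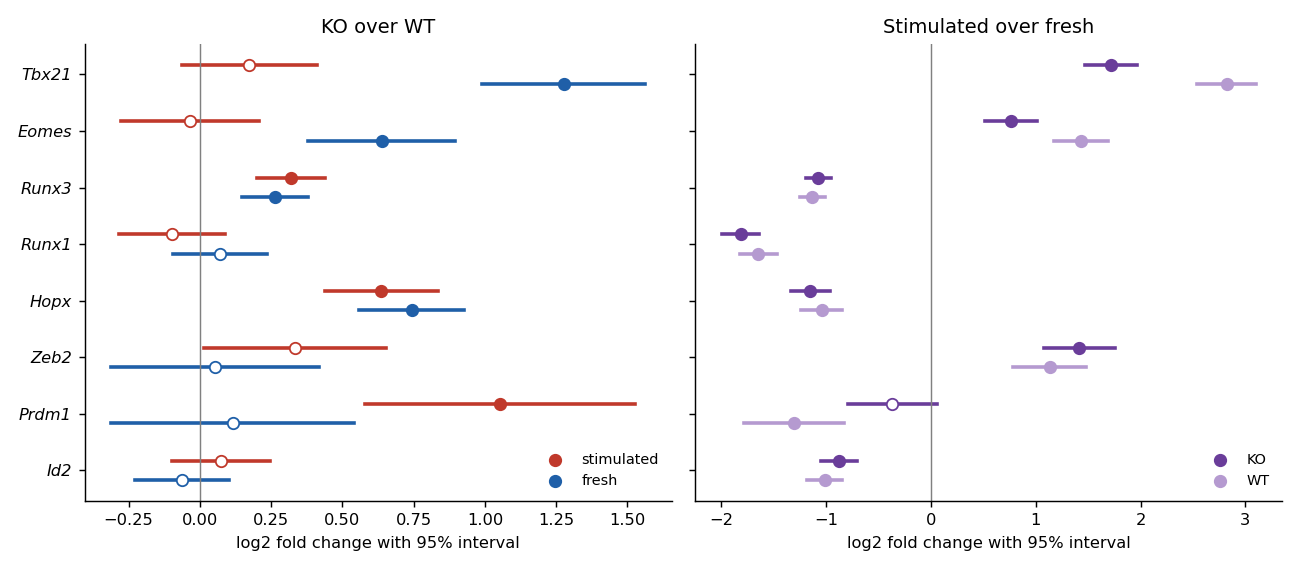
Log2 fold change of each gene with its 95% interval from edgeR (horizontal axes); filled points passed the test. The left panel gives KO over WT in stimulated and in fresh cells, and the right panel gives stimulated over fresh in KO and in WT cells. For KO over WT, Tbx21 was at 0.17 in stimulated cells and 1.28 in fresh cells, whereas Hopx was at 0.64 and 0.74.

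Tbx21 (ENSMUSG00000001444, chromosome 11, 97098071 to 97115331, minus strand, GRCm38) had the largest genotype difference of the 8 genes in fresh cells. It was at 25.6, 38.7 and 27.7 CPM in the fresh KO libraries, against 12.5, 11.7 and 14.0 CPM in fresh WT. Even the lowest KO library lay well above the highest WT library. The log2 fold change was 1.28 (SE 0.13), a 2.42-fold rise with an edgeR adjusted p of 0.000301, the 4th smallest p among all genes tested. In stimulated cells the libraries had 107, 93.0 and 103 CPM in KO, against 89.8, 94.7 and 84.5 CPM in WT. One KO library fell within the WT range. The log2 difference of 0.17 (95% interval -0.06 to 0.41, edgeR adjusted p = 0.375) did not pass. The genotype difference was smaller in stimulated than in fresh cells, with a stimulated minus fresh value of -1.10 on the log2 scale (SE 0.17, edgeR adjusted p = 0.0064).

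Eomes (ENSMUSG00000032446, chromosome 9, 118478212 to 118486132, plus strand) followed the same order in fresh cells with a smaller change. Its fresh KO libraries had 85.6, 119 and 89.5 CPM, and the fresh WT libraries 69.5, 52.9 and 67.0 CPM. The groups did not overlap, and the second KO library stood above the other two in Eomes as it did in Tbx21. Eomes rose 1.56-fold (log2 0.64, SE 0.12, edgeR adjusted p = 0.0192). The call was lost without fresh WT replicate 2 (log2 0.53, edgeR adjusted p = 0.111) and when the libraries with Y-linked reads were dropped (log2 0.53, edgeR adjusted p = 0.0595). After stimulation Eomes was at 152, 172 and 175 CPM in KO libraries and 189, 164 and 158 CPM in WT libraries, which overlapped. The log2 difference was -0.03 (95% interval -0.28 to 0.21, edgeR adjusted p = 0.893). Between states the genotype difference moved by -0.67 (SE 0.17, edgeR adjusted p = 0.0484), a call close to the threshold that was lost when any of 10 single libraries was left out (adjusted p up to 0.125). Of all genes tested, 2.26% were called in this test of the difference, and Tbx21 and Eomes were the 2 called among the 8. That test uses all 12 libraries, so it shares them with the comparisons within each state.

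NK cells also express both T-box genes. The 8 NK cell markers summed to 9.23 to 18.4 CPM in fresh KO libraries and 11.1 to 13.8 CPM in fresh WT libraries, and 2 of them were at 0 in every library. Single markers went either way and none passed the test. The defining marker Klrb1c averaged 1.82 ± 0.101 CPM in fresh KO cells and 3.15 ± 0.290 CPM in fresh WT cells, and Ncr1 averaged 0.457 ± 0.251 and 0.991 ± 0.389 CPM in the same groups (SD, n = 3 each; edgeR adjusted p = 0.182 for Klrb1c and 0.288 for Ncr1). Klre1 averaged 6.53 ± 3.84 CPM in fresh KO and 5.08 ± 0.254 CPM in fresh WT (edgeR adjusted p = 0.66), and Klra9 1.88 ± 0.978 and 1.36 ± 0.280 CPM in the same groups (edgeR adjusted p = 0.68). In bulk RNA, fewer cells of a type and less RNA per cell cannot be told apart.

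The sequences upstream of Tbx21, Eomes and Runx3 are shown because these genes rose in fresh KO cells, and that of Prdm1 because it had the largest genotype fold of the 8 in stimulated cells. Hopx, which also rose in fresh KO cells, is not shown. Each is the 250 bases before an annotated start site, from RefSeq on GRCm38.p6, 5′ to 3′ on the gene's strand. Runx3 is shown at the more upstream of its start sites.
Tbx21, chr11:97115332-97115581, minus strand: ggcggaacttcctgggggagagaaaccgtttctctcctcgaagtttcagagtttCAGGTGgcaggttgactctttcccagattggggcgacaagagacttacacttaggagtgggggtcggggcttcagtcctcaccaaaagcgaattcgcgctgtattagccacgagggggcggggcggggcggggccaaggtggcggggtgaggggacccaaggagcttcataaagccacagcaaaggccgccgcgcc
Eomes, chr9:118477939-118478188, plus strand: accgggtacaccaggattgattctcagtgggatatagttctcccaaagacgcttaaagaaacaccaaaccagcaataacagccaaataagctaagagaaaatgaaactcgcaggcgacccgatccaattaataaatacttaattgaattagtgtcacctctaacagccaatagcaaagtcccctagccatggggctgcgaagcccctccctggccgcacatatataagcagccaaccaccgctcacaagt
Runx3, chr4:135120395-135120644, plus strand: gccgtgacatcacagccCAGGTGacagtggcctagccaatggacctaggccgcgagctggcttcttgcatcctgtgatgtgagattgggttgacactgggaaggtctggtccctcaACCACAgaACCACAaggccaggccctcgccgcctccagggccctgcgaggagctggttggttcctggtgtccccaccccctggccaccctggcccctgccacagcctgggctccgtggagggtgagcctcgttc
Prdm1, chr10:44458749-44458998, minus strand: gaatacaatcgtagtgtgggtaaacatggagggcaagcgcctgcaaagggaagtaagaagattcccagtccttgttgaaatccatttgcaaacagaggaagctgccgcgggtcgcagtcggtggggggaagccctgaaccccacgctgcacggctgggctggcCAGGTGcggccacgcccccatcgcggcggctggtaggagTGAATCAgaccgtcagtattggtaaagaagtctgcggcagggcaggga
Capitals mark exact matches, on either strand, to 5 motifs. The ZEB E-box CACCTG was found as its complement CAGGTG at bases -196 to -191 of Tbx21, -233 to -228 of Runx3 and -87 to -82 of Prdm1. The RUNX motif TGTGGT was found as ACCACA at -134 to -129 and -126 to -121 of Runx3, the gene whose product binds it. Prdm1 held the AP-1 motif TGANTCA at -48 to -42. No match to the T-box motif GGTGTG or the GAS motif TTCNNNGAA lay in these 4 windows, and Eomes held none of the 5. Of 32851 RefSeq windows of the same length, 17.2% held the ZEB E-box, 14.0% the RUNX motif, 6.75% the AP-1 motif, 16.3% the T-box motif and 7.02% the GAS motif. A match describes letters and is not a binding site. All 8 genes were matched to RefSeq, at 14 start sites. The windows of Hopx and the more downstream window of Runx3 held none of the 5 motifs. Among the 14 windows, T-box and GAS matches lay only upstream of Zeb2.

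Genes known as targets of T-bet and Eomes were read from a list of 21. In fresh KO cells 5 of them rose and none fell, where 0.98% of all genes were higher and 0.219% lower, and the median log2 fold change was 0.45. Cxcr3, a chemokine receptor of effector cells, rose most: 58.4 ± 10.8 CPM in fresh KO and 25.0 ± 4.41 CPM in fresh WT (2.35-fold, SD, n = 3 each, edgeR adjusted p = 0.00745). The chains of the IL-18 receptor, Il18r1 and Il18rap, rose together. Il18r1 averaged 122 ± 16.3 CPM in fresh KO and 73.7 ± 11.2 CPM in fresh WT (edgeR adjusted p = 0.0259), and Il18rap 36.7 ± 5.59 and 19.8 ± 3.30 CPM in the same groups (edgeR adjusted p = 0.0265). The chemokine Ccl4 averaged 13.7 ± 1.80 CPM in fresh KO and 8.16 ± 0.947 CPM in fresh WT (edgeR adjusted p = 0.0219). Il2rb, the shared chain of the IL-2 and IL-15 receptors, averaged 394 ± 70.4 and 281 ± 11.2 CPM in fresh KO and fresh WT (1.40-fold, edgeR adjusted p = 0.0288). Without fresh WT replicate 2 none of the 5 passed, Cxcr3 being nearest (log2 1.09, edgeR adjusted p = 0.0516). Without fresh KO replicate 1 or replicate 2, 3 of the 21 passed, and 2 passed without the libraries with Y-linked reads.

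In stimulated cells the same list split, with 4 targets higher and 3 lower in the KO and a median of 0.14. Of all genes, 5.08% were higher and 4.22% lower in this comparison. Ifng, the effector cytokine, averaged 541 ± 80.2 CPM in stimulated KO and 244 ± 47.9 CPM in stimulated WT (2.22-fold, SD, n = 3 each, edgeR adjusted p = 0.000106). Gzmb, a cytotoxic protease, averaged 2339 ± 585 CPM in stimulated KO and 1251 ± 134 CPM in stimulated WT (1.87-fold, edgeR adjusted p = 0.00216). Tbx21 and Eomes themselves did not pass the test in this comparison. Il12rb2, a chain of the IL-12 receptor, averaged 171 ± 46.1 CPM in stimulated KO and 114 ± 17.5 CPM in stimulated WT (1.51-fold, edgeR adjusted p = 0.0173). Il2rb was 1.28-fold higher (edgeR adjusted p = 0.0345). Ctsw, a cathepsin of killer cells, fell to 63.9 ± 3.52 CPM in stimulated KO, against 82.0 ± 6.53 CPM in stimulated WT (log2 -0.36, edgeR adjusted p = 0.00421). Klrd1 (-0.33, edgeR adjusted p = 0.0477) and Nkg7 (-0.18, edgeR adjusted p = 0.036) were the other two lower targets, named after their values were seen. The count of 7 was 4 without stimulated KO replicate 2 and 3 without stimulated WT replicate 3, and 4 with the stimulated groups fitted alone. Il12rb2 did not pass without either of these libraries (edgeR adjusted p up to 0.0919), and Il2rb did not pass when any 1 of 5 stimulated libraries was left out (adjusted p up to 0.141).

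**Figure D3:**
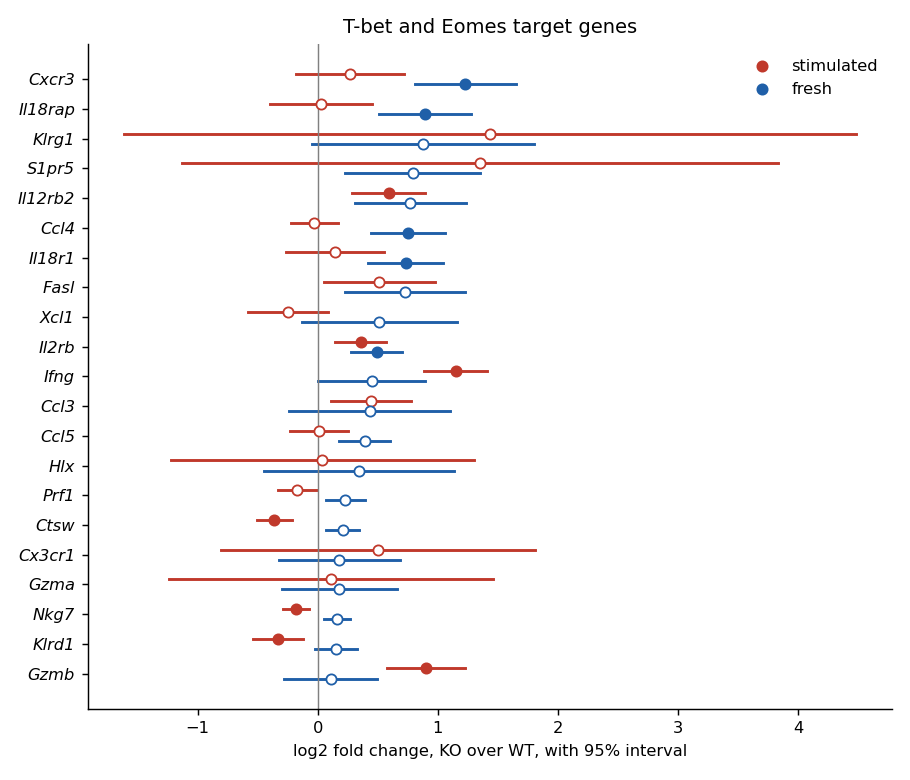
Log2 fold change of KO over WT (horizontal axis) with 95% intervals for the 21 T-bet and Eomes target genes, in stimulated and in fresh cells; filled points passed edgeR's test. Cxcr3 lay furthest to the right in fresh cells among the called targets (1.23), and Ifng in stimulated cells (1.15).

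Of 19 receptors, kinases and factors that feed these regulators, 1 was called in fresh cells, Il2rb, and 8 in stimulated cells. In stimulated KO cells 7 were higher and 1 lower (5.08% and 4.22% of all genes), with a median log2 fold change of 0.20. Besides Il12rb2 and Il2rb, Stat5a, which transmits IL-2 signals, averaged 316 ± 25.1 CPM in stimulated KO and 251 ± 10.5 CPM in stimulated WT (1.26-fold, edgeR adjusted p = 0.00129). Il2ra, the inducible chain of the IL-2 receptor, averaged 1184 ± 107 CPM in stimulated KO and 945 ± 28.5 CPM in stimulated WT (log2 0.33, edgeR adjusted p = 0.0205). The lower gene was Il2rg, named after its values were seen (-0.27, edgeR adjusted p = 0.00296). The 8 calls became 4 without stimulated KO replicate 2 or stimulated WT replicate 2, and 3 without stimulated WT replicate 3. Il2ra was not called when any 1 of these 3 libraries was left out (edgeR adjusted p up to 0.0926). In fresh cells the call of Il2rb was lost without fresh WT replicate 2 or fresh WT replicate 3 (edgeR adjusted p = 0.119 and 0.108), and when the libraries with Y-linked reads were dropped (log2 0.32, edgeR adjusted p = 0.151).

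Runx3 (ENSMUSG00000070691, chromosome 4, 135120652 to 135177990, plus strand) was higher in the KO in both states, by a small margin. Stimulated KO libraries had 124, 124 and 116 CPM, against 99.7, 99.7 and 91.7 CPM in stimulated WT. Every KO library stood above every WT library. The rise was 1.25-fold (log2 0.32, SE 0.06, edgeR adjusted p = 0.00274). In fresh cells Runx3 was at 245, 267 and 253 CPM in KO, against 217, 224 and 197 CPM in WT, again without overlap. That rise of 1.20-fold (log2 0.26, SE 0.05, edgeR adjusted p = 0.0297) depended on single libraries: it was not called without fresh KO replicate 2 (edgeR adjusted p = 0.083) or replicate 3 (0.081), without fresh WT replicate 2 (0.0516) or replicate 3 (0.137), or without the libraries with Y-linked reads (log2 0.18, edgeR adjusted p = 0.256). The test of the difference between states gave 0.06 (edgeR adjusted p = 0.782).

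Runx1 (ENSMUSG00000022952, chromosome 16, 92601466 to 92826149, minus strand) overlapped between genotypes in both states. It was at 14.4, 13.9 and 13.7 CPM in stimulated KO, against 14.3, 15.4 and 15.3 CPM in stimulated WT (log2 -0.10, 95% interval -0.29 to 0.09, edgeR adjusted p = 0.539). In fresh cells it was at 55.0, 48.2 and 44.8 CPM in KO, against 48.2, 43.2 and 49.7 CPM in WT (log2 0.07, edgeR adjusted p = 0.748), and the sign turned (-0.0066) without fresh KO replicate 1. The ratio of Runx3 to Runx1 counts within a library is free of depth. It was 8.58, 8.88 and 8.50 in stimulated KO, against 6.96, 6.47 and 6.01 in stimulated WT, without overlap (log2 difference 0.42, exact two-sided permutation p = 0.1, the smallest that 3 against 3 allows). In fresh cells the ratio was 4.45, 5.54 and 5.65 in KO and 4.51, 5.18 and 3.96 in WT, which overlapped (log2 difference 0.20, exact permutation p = 0.3).

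The third family member, Runx2, moved with genotype more than either of them. It averaged 55.6 ± 7.00 CPM in stimulated KO and 29.8 ± 1.69 CPM in stimulated WT (1.86-fold, SD, n = 3 each, edgeR adjusted p = 0.000365). In fresh cells it averaged 43.5 ± 6.97 CPM in KO and 25.8 ± 3.11 CPM in WT (1.69-fold, edgeR adjusted p = 0.00745), a call lost without fresh WT replicate 2 (edgeR adjusted p = 0.0516). Runx2 was the only called gene of 8 RUNX partners and corepressors in fresh cells. In stimulated cells the corepressor Tle3 was also called, at 139 ± 8.40 CPM in KO and 160 ± 4.65 CPM in WT (log2 -0.21, edgeR adjusted p = 0.0392), and it failed when any 1 of 5 stimulated libraries was left out (adjusted p up to 0.165).

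Of 5 genes that RUNX3 is known to regulate in CD8 cells, none was called in fresh cells. In stimulated KO cells 2 fell and none rose, where 4.22% of all genes were lower and 5.08% higher. Itgae, the integrin chain CD103 that RUNX3 is known to activate, averaged 9.43 ± 2.91 CPM in stimulated KO and 18.7 ± 1.83 CPM in stimulated WT (log2 -0.98, edgeR adjusted p = 0.0027). Cd8a averaged 477 ± 45.7 CPM in stimulated KO and 593 ± 57.4 CPM in stimulated WT (log2 -0.31, edgeR adjusted p = 0.0155), a call lost without stimulated KO replicate 3 (edgeR adjusted p = 0.0632) or with the stimulated groups fitted alone (0.0504). Both fell while Runx3 itself was higher. In the same cells the 6 CD8 T cell markers, of which Cd8a is 1, summed to 1489 to 1669 CPM in KO and 1842 to 1966 CPM in WT. Of these 6 markers, 4 were called lower in the KO and none higher, so the fall of Cd8a was not particular to RUNX3-regulated genes.

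Hopx (ENSMUSG00000059325, chromosome 5, 77086988 to 77115121, minus strand) was higher in the KO in both states. It was at 17.9, 19.7 and 20.0 CPM in stimulated KO libraries, against 11.2, 13.3 and 12.4 CPM in stimulated WT. The groups lay well apart. The rise was 1.56-fold (log2 0.64, SE 0.09, edgeR adjusted p = 0.000729). Fresh KO libraries had 38.7, 46.7 and 42.0 CPM, and fresh WT libraries 24.7, 24.2 and 27.4 CPM. All KO libraries again exceeded all WT libraries, by 1.67-fold on average (log2 0.74, SE 0.09, edgeR adjusted p = 0.000559). The difference between states was -0.11 (edgeR adjusted p = 0.746). No alternative among those run ended either call: the adjusted p was at most 0.00992 in fresh and 0.00645 in stimulated cells. The exons of Hopx share 412 bases with the antisense gene Hopxos, and with an unknown strand setting their reads cannot be told apart.

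Prdm1 (ENSMUSG00000038151, chromosome 10, 44437177 to 44528501, minus strand) was the lowest expressed of the genes with a call, at 32 to 111 counts in a library. In stimulated KO libraries it was at 2.67, 4.34 and 3.44 CPM, against 1.70, 1.97 and 1.33 CPM in stimulated WT. The groups did not overlap. The log2 fold change was 1.05 (SE 0.22), a 2.08-fold rise (edgeR adjusted p = 0.00845), and it was 0.90 without stimulated WT replicate 3 (edgeR adjusted p = 0.0537). Fresh KO libraries had 4.99, 5.02 and 3.36 CPM and fresh WT libraries 4.01, 4.31 and 3.99 CPM, with KO on both sides of WT (log2 0.11, 95% interval -0.31 to 0.54, edgeR adjusted p = 0.862). The difference between states, 0.94 (SE 0.30), did not pass (edgeR adjusted p = 0.121), so the genotype differences of the 2 states are not shown to differ. B and plasma cells also express Prdm1, and their 8 markers summed to 30.1 CPM on average in stimulated KO and 32.1 CPM in stimulated WT. Of the 8, 1 was called higher and 0 lower (5.08% and 4.22% of all genes), with a median log2 fold change of -0.09. Single markers went either way. Sdc1 averaged 1.87 ± 0.277 CPM in stimulated KO and 1.03 ± 0.120 CPM in stimulated WT, and Cd22 3.78 ± 0.665 and 5.21 ± 0.704 CPM. The part of these cells in the Prdm1 value was not tested.

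Genes that Blimp-1 is known to repress were read from a list of 6. None was called in fresh cells. In stimulated KO cells 2 fell and none rose, where 4.22% of all genes were lower and 5.08% higher. Id3, an inhibitor of E proteins kept in memory precursors, averaged 21.3 ± 5.14 CPM in stimulated KO and 32.4 ± 0.847 CPM in stimulated WT (log2 -0.60, edgeR adjusted p = 0.0151), and failed without stimulated WT replicate 3 (0.0629). Bcl6, the repressor that opposes Blimp-1, averaged 3.90 ± 0.615 CPM in stimulated KO and 5.13 ± 0.203 CPM in stimulated WT (log2 -0.41, edgeR adjusted p = 0.0405), a call lost in 11 of 14 alternatives (adjusted p up to 0.175). Il2, Ciita, Pax5 and Myc were not called.

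Zeb2 (ENSMUSG00000026872, chromosome 2, 44983632 to 45117395, minus strand) did not pass in either state. Stimulated KO libraries had 26.9, 31.4 and 31.9 CPM, and stimulated WT libraries 22.3, 24.8 and 24.4 CPM. The groups did not overlap, and the log2 difference was 0.34 (95% interval 0.02 to 0.66) with an edgeR adjusted p of 0.187, or 0.0447 when the 6 stimulated libraries were fitted alone. In fresh cells Zeb2 was at 15.0, 10.4 and 8.63 CPM in KO, against 9.72, 9.74 and 13.3 CPM in WT. These overlapped, with a log2 difference of 0.05 (95% interval -0.31 to 0.42, edgeR adjusted p = 0.934) that turned to -0.18 without fresh KO replicate 1, -0.013 without fresh WT replicate 1 and -0.018 without fresh WT replicate 2. Fresh KO replicate 1 also had the highest sum of NK cell markers, 18.4 CPM, though the defining marker Klrb1c stayed at 1.72 to 1.92 CPM in fresh KO libraries. Some T-bet and Eomes targets, named after their values were seen, were highest there too. Klrg1 was at 10.8, 3.67 and 2.21 CPM in fresh KO replicates 1 to 3, and Cx3cr1 at 17.5, 8.60 and 7.53 CPM. Other targets were not, such as Cxcr3 at 49.9, 70.5 and 54.8 CPM. The part of any of these in the Zeb2 value was not tested.

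Id2 (ENSMUSG00000020644, chromosome 12, 25093799 to 25097140, minus strand) overlapped between genotypes in both states. It was at 35.7, 42.4 and 43.0 CPM in stimulated KO, against 35.0, 40.2 and 39.7 CPM in stimulated WT, which overlapped (log2 0.07, 95% interval -0.10 to 0.25, edgeR adjusted p = 0.631). In fresh cells it was at 72.4, 74.9 and 75.1 CPM in KO, against 71.5, 77.9 and 82.6 CPM in WT (log2 -0.06, 95% interval -0.23 to 0.10, edgeR adjusted p = 0.791). Among 5 tested ID and E protein genes, 0 were called in fresh cells. In stimulated KO cells 1, Id3, was lower, where 4.22% of all genes were lower.

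Factors that hold naive and memory states against effector fate were read from a list of 10. None was called in fresh cells. In stimulated KO cells 6 fell and none rose, where 4.22% of all genes were lower and 5.08% higher, with a median log2 fold change of -0.24. Klf2, which keeps naive T cells circulating, averaged 5.71 ± 0.433 CPM in stimulated KO and 9.75 ± 1.32 CPM in stimulated WT (log2 -0.77, edgeR adjusted p = 0.00268). Myb averaged 73.1 ± 3.80 CPM in stimulated KO and 95.2 ± 6.46 CPM in stimulated WT (log2 -0.38, edgeR adjusted p = 0.0115). Bach2, a repressor that restrains effector genes, averaged 169 ± 13.2 CPM in stimulated KO and 212 ± 16.0 CPM in stimulated WT (log2 -0.33, edgeR adjusted p = 0.0109). Without stimulated WT replicate 3 the count was 3, and Bach2 was among those lost (edgeR adjusted p = 0.0563).

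Stimulation moved all 8 genes in WT cells and 7 of 8 in KO cells, in a setting where most genes moved. In stimulated against fresh KO cells 3 rose and 4 fell, against 41.7% of all genes called higher and 42.2% called lower. In WT cells 3 rose and 5 fell, against 40.8% and 41.4% of all genes. The median log2 fold change was -0.62 in KO cells and -1.03 in WT cells for the 8 genes, and -0.02 and -0.03 for all genes. These comparisons share their libraries with the genotype comparisons above. The dendritic marker sum was 116 to 121 CPM in stimulated KO and 1144 to 1700 CPM in fresh KO, and 102 to 122 CPM in stimulated WT and 1421 to 1744 CPM in fresh WT. Of these 12 markers, 2 rose and 10 fell in KO cells, and 1 rose and 10 fell in WT cells. Batf3 averaged 32.2 CPM in stimulated KO and 2.65 CPM in fresh KO, and 16.7 and 2.62 CPM in stimulated and fresh WT. The defining marker Zbtb46 averaged 7.80 CPM in stimulated KO and 3.52 CPM in fresh KO, and 4.61 and 3.84 CPM in stimulated and fresh WT. Myeloid markers summed to 3.65 CPM on average in stimulated KO and 52.1 CPM in fresh KO, and to 4.25 and 60.8 CPM in stimulated WT and fresh WT. Their part in the falls was not tested.

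The T-box genes and Zeb2 rose in both genotypes. Tbx21 rose 3.29-fold in KO cells (log2 1.72, SE 0.12, edgeR adjusted p = 1.19e-09) and 7.06-fold in WT cells (log2 2.82, SE 0.13, edgeR adjusted p = 1.09e-11). Eomes rose 1.70-fold in KO cells (edgeR adjusted p = 1.6e-05) and 2.70-fold in WT cells (edgeR adjusted p = 1.64e-08). For both T-box genes the smaller KO fold came with a higher fresh KO level, which restates the test between states and is no further result. Zeb2 rose 2.66-fold in KO cells (edgeR adjusted p = 5.28e-07) and 2.19-fold in WT cells (edgeR adjusted p = 9.53e-06). Within a library, the ratio of Tbx21 to Eomes counts was 0.706, 0.542 and 0.588 in stimulated KO and 0.298, 0.327 and 0.310 in fresh KO. In WT it was 0.476, 0.579 and 0.534 in stimulated and 0.180, 0.220 and 0.210 in fresh cells. The stimulated libraries stood above the fresh ones in both genotypes (log2 differences 0.96 in KO and 1.38 in WT, exact permutation p = 0.1 each). KO stood above WT without overlap in fresh cells (0.62, exact permutation p = 0.1), and in stimulated cells the groups overlapped (0.20, exact permutation p = 0.2).

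**Figure D4:**
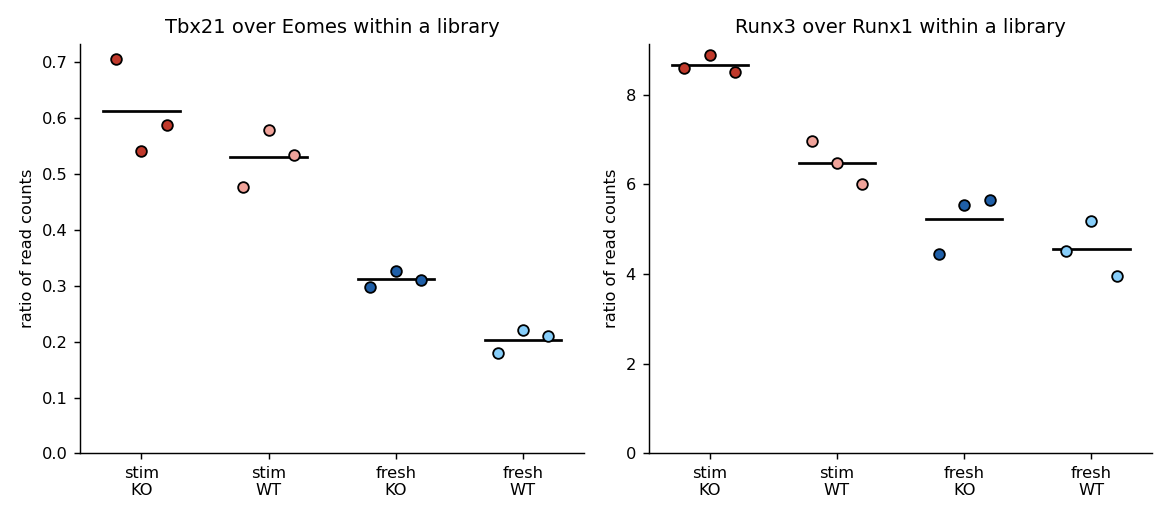
Ratio of Tbx21 to Eomes counts and of Runx3 to Runx1 counts in each library (vertical axes), with groups from left to right stimulated KO, stimulated WT, fresh KO and fresh WT; lines are means. The Tbx21 to Eomes ratio was 0.542 to 0.706 in stimulated KO and 0.180 to 0.220 in fresh WT libraries. Counts are not corrected for gene length, so a ratio compares libraries and not the levels of 2 genes.

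Runx1, Runx3, Hopx and Id2 fell in both genotypes. Runx1 fell most, 3.52-fold in KO cells (log2 -1.82, edgeR adjusted p = 7.27e-12) and 3.13-fold in WT cells (log2 -1.65, edgeR adjusted p = 3.04e-11). Runx3 fell 2.11-fold in KO cells (log2 -1.07) and 2.19-fold in WT cells (log2 -1.13), with edgeR adjusted p of 3.27e-11 and 2.41e-11. Hopx fell 2.22-fold in KO cells and 2.06-fold in WT cells (edgeR adjusted p = 3.93e-09 and 3.23e-08). Id2 fell 1.84-fold in KO cells and 2.02-fold in WT cells (edgeR adjusted p = 3.45e-08 and 7.15e-09). The ratio of Runx3 to Runx1 was higher after stimulation, by 0.74 on the log2 scale in KO cells and 0.52 in WT cells (exact permutation p = 0.1 each). Prdm1 fell 2.47-fold in WT cells (log2 -1.31, edgeR adjusted p = 5.71e-05) and had a log2 difference of -0.37 in KO cells that did not pass (edgeR adjusted p = 0.0955). The call in KO cells was gained without fresh KO replicate 3 (-0.54, edgeR adjusted p = 0.0205) or stimulated KO replicate 2 (-0.54, edgeR adjusted p = 0.026). It was also gained with upper-quartile scaling of all libraries.

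Most genes of the wider lists were also called with stimulation in WT cells, as were most genes tested (40.8% higher and 41.4% lower), so these counts set no list apart. Of 21 T-bet and Eomes targets, 8 rose and 12 fell. The chemokines Xcl1 (log2 7.53), Ccl3 (7.46) and Ccl4 (6.36) rose most, and S1pr5, a receptor for exit from tissue, fell to 0.0328 ± 0.0284 CPM in stimulated WT, against 3.20 ± 0.404 CPM in fresh WT (SD, n = 3 each). Of 19 inputs 8 rose and 9 fell, led by Il2ra (7.63), Il12rb2 (4.01), Irf4 (3.57) and Il12rb1 (3.32). Of 8 RUNX partners 1 rose and 5 fell, with Tle4 at -1.85 and Aes at -1.69. All 4 called genes of the 5 in the RUNX3 list fell, with Itgae at -3.69, Cd4 at -3.44, Cd8b1 at -2.40 and Cd8a at -1.36. This list holds genes that RUNX3 activates and genes that it silences, such as Cd4. Cd4 averaged 0.871 CPM in stimulated WT and 9.34 CPM in fresh WT, and is also a marker of CD4 T cells. The part of other cell types in its fall was not tested. Of the 10 opposing factors 3 rose and 7 fell, with Klf2 at -5.41 and Tcf7 at -2.35. Among 5 tested ID and E protein genes 3 fell, Id1 most (-1.42), and Tcf3 rose (0.20), a call lost with upper-quartile scaling (0.08). Id1 lay near the floor, at 0.316 ± 0.158 CPM in stimulated WT and 0.828 ± 0.153 CPM in fresh WT. Among 6 Blimp-1 targets 2 rose and 3 fell. Il2 averaged 16.8 ± 8.31 CPM in stimulated WT and 0.188 ± 0.142 CPM in fresh WT. Pax5 was among those that fell (-2.28) and is also a B cell marker. The part of B cells in its fall was not tested. All calls are edgeR's at an adjusted p under 0.05.

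Across the 12 libraries, with the mean of each state removed, Tbx21 and Eomes had a Pearson r of 0.89, the highest of the 28 pairs among the 8 genes, followed by Runx3 and Hopx at 0.87 and Tbx21 and Hopx at 0.82. The lowest was Runx3 and Runx1 at -0.28. These values describe libraries that share a genotype difference, and carry no p. Of all genes with a mean of at least 2 on the log2 CPM scale, those most like Hopx were Snx10 (r = 0.975), Runx2 (0.963) and Nlgn2 (0.960). Those most like Prdm1 were Gzmb (0.971), Hk1 (0.949) and Rab3gap2 (0.949). The nearest to Tbx21 were Pogk (0.965), Meis3 (0.953) and Aqp9 (0.945), and to Eomes Ctla2a (0.934), Tapt1 (0.910) and Dennd4c (0.909). Runx3 was most like Tmem221 (0.969), Adcy6 (0.963) and Bcorl1 (0.952). Values were lower for the 3 genes with no genotype call: the closest were Abcd4 to Runx1 (0.872), Otud7b to Zeb2 (0.888) and Snx16 to Id2 (0.849).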

How the data were processed

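For each of the 12 samples the authors deposited unnormalized whole-number counts of reads per gene. The submitters' processing notes name the mm10 build and the tools TopHat, TopHat2, HTSeq and DESeq2. Their versions, annotation and strand setting are not given in the sources used, so reads of overlapping antisense genes can be shared or lost. This touches Eomes, Runx1, Hopx and Zeb2, whose exons overlap antisense genes. HTSeq summary lines (5.22% to 6.43% of the counted total) were left out. No 2 replicates agreed within counting noise (their chi-square over degrees of freedom was 4.26 to 18.6).

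Groups were taken from the source labels, and replicate numbers only name libraries. In R 4.3.3, edgeR 4.0.16 filtered genes (filterByExpr), scaled libraries (TMM) and fitted quasi-likelihood models with 1 coefficient per group over all 12 libraries (8 residual degrees of freedom), adjusted by Benjamini-Hochberg. Alternatives were RLE and upper-quartile scaling, no filter, DESeq2 1.42.0, voom in limma 3.58.1, a term for or omission of libraries with Y-linked reads, the compared groups alone, and leaving out each library. The fit was tested on simulated data. RPKM used exon lengths from GENCODE M21 (GRCm38). The genes, the wider lists and the tests were chosen with earlier results of these data known. Named genes were the 8 genes, Otub1, up to 4 called genes per list with the largest change, and the 3 likest genes of each; exceptions are marked. One gene of the wider lists is not reported here and was taken out of its list's counts. Motifs were searched in the 250 bases upstream of RefSeq start sites.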

Additional observations from a re-analysis of the deposited data

Results flagged for a closer look

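For 7 genes among those named by rule, the genotype difference itself differed between stimulated and fresh cells, by a test of that difference over all 12 libraries (edgeR's interaction term, Benjamini-Hochberg adjusted over all genes). Of all genes tested, 2.26% were called in this test. Named genes of the wider lists were picked by their calls in these same libraries, so the count of 7 cannot be set against that share. The value is the log2 difference KO over WT in stimulated cells minus the same in fresh cells. For Otub1, the deleted gene, it was -1.47 (SE 0.20, adjusted p = 0.00329), with a genotype difference of -2.66 in stimulated and -1.19 in fresh cells. For Tbx21 it was -1.10 (SE 0.17, adjusted p = 0.0064). For Eomes it was -0.67 (SE 0.17, adjusted p = 0.0484), a call lost in 11 of 19 alternatives. Ccl4 followed them with -0.78 (adjusted p = 0.0296): its genotype difference was -0.03 in stimulated and 0.75 in fresh cells.

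In the other 3 genes the sign differed between states, lower in stimulated KO and above 0 but uncalled in fresh KO. Klf2 had a value of -0.87 (adjusted p = 0.0105), with -0.77 in stimulated and 0.11 in fresh cells. Ctsw had -0.57 (adjusted p = 0.00694), with -0.36 and 0.21 in the same states, and Tle3 had -0.36 (adjusted p = 0.0321), with -0.21 and 0.16. Il2rg and Nkg7, 2 list genes outside the naming rule, also passed, with -0.37 (adjusted p = 0.0108) and -0.34 (adjusted p = 0.0225).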

How the results depend on the processing

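Over the 8 genes and 5 comparisons, 600 alternative values were computed: 571 kept direction and call, 19 lost the call, 4 gained one and 6 changed sign, each of these 6 uncalled. These totals include the stimulation comparisons and results that were uncalled throughout. The 19 lost calls all fell on genotype results. Eomes lost 11 of 19 in the test between states and 2 of 14 in fresh cells. Runx3 lost 5 of 14 in fresh cells, and Prdm1 1 of 14 in stimulated cells. No alternative run ended the calls of Tbx21 or Hopx in fresh cells, of Runx3 or Hopx in stimulated cells, or of Tbx21 in the test between states. Of the 8 genes, the number called was 2 in fresh cells without the libraries with Y-linked reads, against 4, and 2 to 4 when single libraries were left out. In the test between states it was 1 without the libraries with Y-linked reads and 1 to 2 when single libraries were left out. In stimulated cells it was 2 to 3 when single libraries were left out and 4 when the stimulated groups were fitted alone. The sign changed in fresh cells for Runx1 without fresh KO replicate 1 (range over left-out libraries -0.0066 to 0.14) and for Zeb2 (-0.18 to 0.22), and in stimulated cells for Eomes (-0.083 to 0.047). Upper-quartile scaling moved the median of all genes under stimulation to -0.14 in KO and -0.15 in WT cells. The causes were not tested. No paired analysis was possible because the groups compared share no number in their sample titles, and the replicate numbers used here were given in accession order only to name libraries. With 3 libraries a group the exact permutation tests of ratios cannot go below p = 0.1. Depth limits Prdm1 most, and its stimulated WT libraries held 32 to 41 counts.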
